A study of Drosophila melanogaster with 3 samples.

Results

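Odorant-binding protein genes (Obp genes) were defined here as every gene whose FlyBase symbol begins with Obp and a digit. An isoform model was assigned to one of them when its gene or transcript identifier held the FlyBase identifier of that gene. Of 51 Obp genes in the annotation, 23 had a model in fly heads, with 27 models in all out of 5980 in the whole assembly, which names 4696 genes. The RNA came from whole heads of wild type (w1118) adults that were 3 days old and untreated, in 3 samples of a single group, and the strain carries a mutant white gene as its laboratory marker. Poly(A)-containing RNA was sequenced by FLAM-seq, a PacBio method that reads full-length cDNAs together with their poly(A) tails. The reads of the 3 samples were merged before assembly, so that no value below has a spread between samples and the depth behind each model is unknown.

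Obp genes encode small secreted proteins with an α-helical fold held together by disulfide bonds between conserved cysteines. In insect sensilla they are made by support cells, are released into the lymph around the sensory neurons, and carry hydrophobic odorants, pheromones or tastants. Members of the family are also made outside sensilla, among others in fat body and in the male reproductive tract.

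The share of Obp genes with a model was moderately above that of protein-coding genes in general, and the difference was not tested. The share was 45.1% of the 51 Obp genes, against 33.4% of the 13945 genes on the 6 main arms that code for a protein. Short genes are the closer background, because 47 of the 51 have an annotated transcript under 1 kb. All 23 genes with a model were among these 47 (48.9%), against 37% of 4019 protein-coding genes with such a transcript. In RNA from whole heads, fewer cells of a type and less RNA per cell cannot be told apart, and a gene without a model was not detected as a full-length transcript at this depth rather than absent.

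The genes with a model were spread over 4 chromosome arms. They were Obp44a, Obp49a, Obp51a, Obp56a, Obp56d, Obp56e, Obp56f, Obp56g, Obp56h, Obp57a, Obp57b and Obp57c on 2R, Obp69a on 3L, Obp83a, Obp83ef, Obp99a, Obp99b, Obp99c and Obp99d on 3R, and Obp8a, Obp18a, Obp19b and Obp19d on X. This made 12 of 29 genes on 2R, 1 of 2 on 3L, 6 of 12 on 3R and 4 of 6 on X. Neither of the 2 genes on 2L, Obp22a and Obp28a, had one. The other genes without a model were Obp46a, Obp47a, Obp47b, Obp50a to Obp50e, Obp56b, Obp56c, Obp56i, Obp57d, Obp57e, Obp58b, Obp58c, Obp58d and Obp59a on 2R, Obp73a on 3L, Obp83b, Obp83cd, Obp83g, Obp84a, Obp85a and Obp93a on 3R, and Obp19a and Obp19c on X. The gene lush, an Obp gene under another symbol whose product is needed for the response to the male pheromone cVA, had no model either.

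Genomic clusters were either covered throughout, covered in part or without any model. Joined at a distance of 20 kb, 33 of the 51 genes formed 10 clusters and 15 of them had a model, while 8 of the 18 lone genes did. The clusters Obp57c-Obp57b-Obp57a, Obp99a-Obp99c and Obp99d-Obp99b had a model for every member. At the other extreme, the 5 genes of the Obp50 cluster, the 4 genes from Obp59a to Obp58d and the pair Obp57e-Obp57d had none. Obp50b and Obp50c are annotated as parts of a shared transcription unit, so their transcripts could not have been told apart by their ends. Clusters covered in part were Obp56a to Obp56f with 4 of 6 genes, Obp19a to Obp19d with 2 of 4, Obp83cd-Obp83ef-Obp83g with 1 of 3 and Obp83a-Obp83b with 1 of 2. Within these, genes with and without a model were close neighbours. On the same strand, 211 nt lay between Obp19a and Obp19b, 636 nt between Obp83ef and Obp83g, 931 nt between Obp83a and Obp83b and 1799 nt between Obp56c and Obp56d. On opposite strands, 108 nt lay between Obp19b and Obp19c, 205 nt between Obp56a and Obp56b and 648 nt between Obp19c and Obp19d, and the annotated bodies of Obp83ef and Obp83cd overlap.

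**Figure D1:**
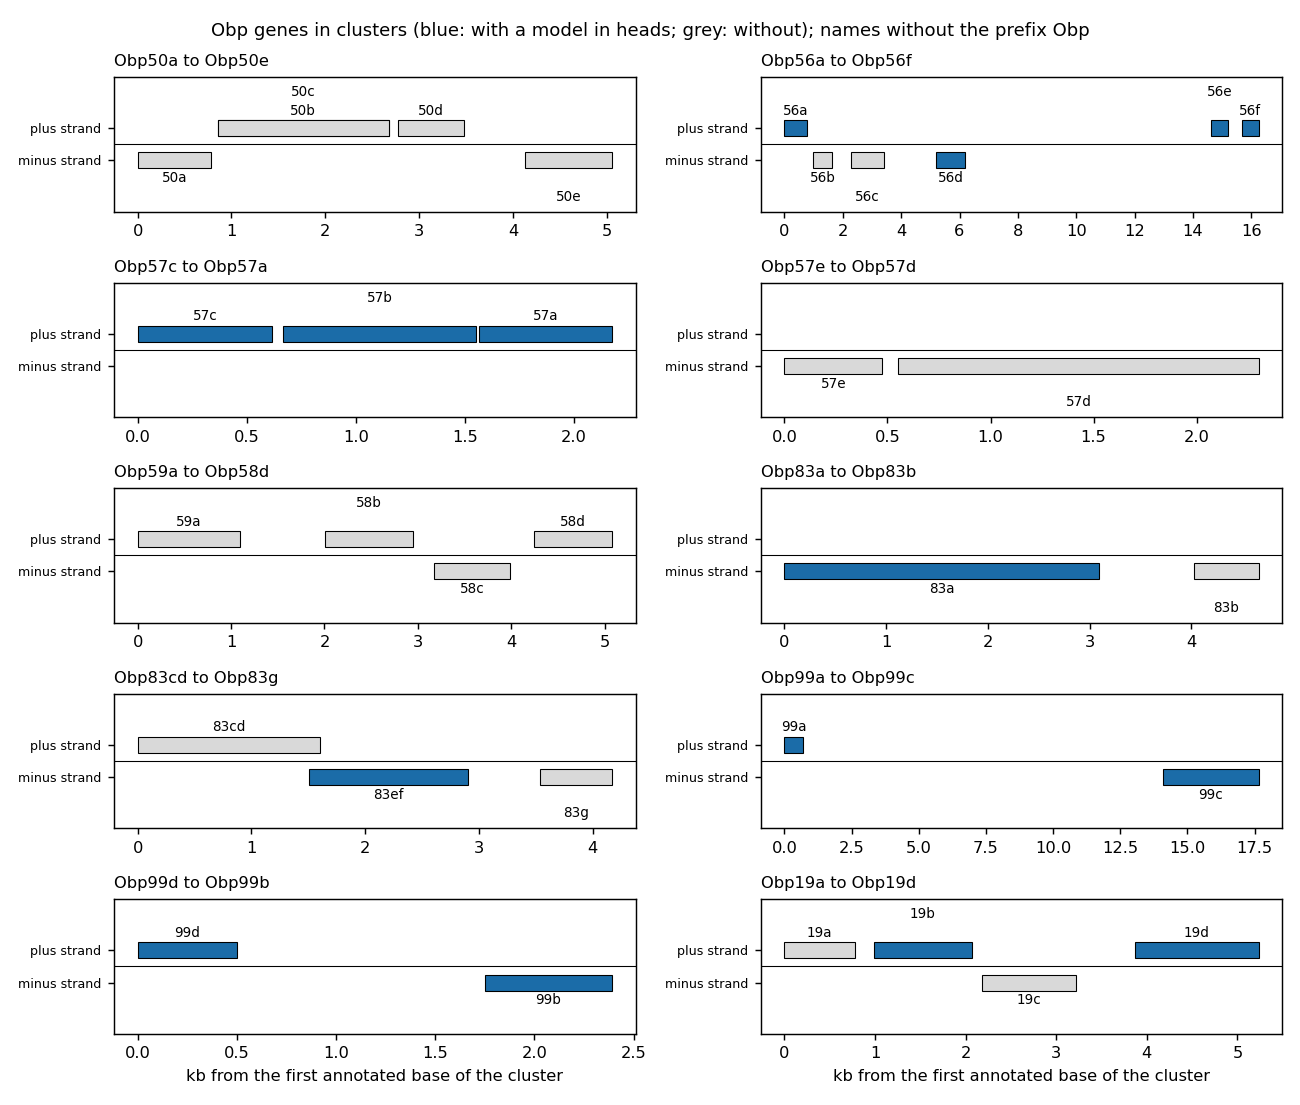
The 10 clusters of Obp genes, drawn as annotated gene bodies on each strand against the distance in kb from the first annotated base of the cluster; blue genes had a model in heads and grey genes did not. Obp57c to Obp57a, Obp99a to Obp99c and Obp99d to Obp99b are blue throughout, whereas the clusters Obp50a to Obp50e, Obp57e to Obp57d and Obp59a to Obp58d are grey throughout.

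The covered and uncovered genes differed in the class of protein they encode. Cysteines were counted in the translated coding sequence after the first 20 residues, which roughly removes the signal peptide. Of 27 genes with 6 such cysteines, the number of the classic Obp pattern, 16 had a model (59.3%). All 4 genes with fewer than 6 (Obp8a, Obp44a, Obp99c and Obp99d) had one. Of 20 genes with more than 6 cysteines, a class that takes in the Plus-C and the double-domain proteins, 3 had a model (15%), namely Obp49a, Obp83ef and Obp19b. Proteins of the genes with a model had a median of 143 residues (117 to 245), those of the genes without one 190.5 residues (117 to 259). A spacing of 3 residues between the second and the third cysteine and 8 between the fifth and the sixth, typical of the family, was found in 18 of the 23 genes with a model and in 15 of the 28 without. The 2 sets also differed in annotation. The shortest annotated transcript had a median of 561 nt with a model and 653 nt without. Of the 28 genes without a model 7 had no annotated 3′ UTR, against 0 of the 23 with one. Whether protein class matters apart from these was not tested.

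Gene structure followed the same division. Of 28 Obp genes with 1 annotated intron in the coding sequence 16 had a model (57.1%), against 5 of 20 with more introns (25%) and 2 of 3 with none (66.7%). The first coding intron of the 21 genes with a model and an intron fell at a median of codon 20 (range 13 to 62), near the end of the signal peptide, and in 19 of them it lay between codons. In the 27 genes with an intron but no model, the median was codon 30 (range 12 to 122). It lay between codons in 25 of these, so that trait was common to both sets. Close relatives were few. The most similar proteins were those of the neighbours Obp83a and Obp83b (69.5% identical residues), Obp56d and Obp56e (63.4%), Obp57a and Obp57b (53.9%) and Obp58b and Obp58c (52.3%), and no other pair exceeded 50%. Of the first of these pairs only Obp83a had a model, both members of the next 2 pairs had one, and neither Obp58b nor Obp58c did.

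Members known from the antenna and members known from seminal fluid were both found. These 2 groups were drawn up from general knowledge of the family after the models had been seen. Their counts stand beside 45.1% of all 51 Obp genes, and the antennal count is near that share. Of 9 genes known as abundant in the antenna, 4 had a model: Obp83a and Obp69a, both made in olfactory sensilla, Obp19d, which is found in several chemosensory organs, and Obp56d. Obp19a, Obp28a, Obp59a, Obp83b and Obp84a had none, although Obp28a is a major product of the antenna. Of 7 genes whose products are known in seminal fluid, 5 had a model (Obp8a, Obp51a, Obp56e, Obp56f and Obp56g) and Obp22a and Obp56i did not. Among further members with a model, Obp49a takes part in the suppression of sweet taste by bitter compounds, Obp56h has been linked to mating behaviour, and Obp99b is known from head fat body with a difference between the sexes. Obp57d and Obp57e, which are known for the response to host plant acids in related species, had none.

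Genes of the male reproductive tract had models in the same assembly, beside the Obp genes known from seminal fluid. Of 23 genes listed for the male accessory gland and ejaculatory duct, mostly by the symbol Acp, 18 had a model (78.3%), namely EbpII, Acp24A4, Acp26Aa, Acp26Ab, Acp29AB, Acp32CD, Acp33A, Acp36DE, Acp53C14a, Acp53C14b, Acp53Ea, Acp54A1, Acp62F, Acp63F, Acp65Aa, Acp76A, Acp95EF and Acp98AB. Acp65Aa and also Acp1, which had no model, are adult cuticle protein genes that share the prefix, and without these 2 the count was 17 of 21 (81%). Of 11 testis genes 6 had one (Mst84Da, Mst84Db, Mst84Dc, Mst87F, dj and ocn), and of 8 ovary genes none did. Their part in the Obp models was not tested. Of markers of head tissues, a model was found for 9 of 11 photoreceptor genes (ninaE, Rh3, Rh4, Rh5, Rh6, Arr1, Arr2, inaD and trpl), 4 of 5 muscle genes (Act57B, Mlc2, up and wupA), 4 of 6 fat body genes (Lsp2, Yp1, Yp2 and Yp3) and 3 of 5 glial genes (Eaat1, Gs2 and alrm), beside the 33.4% of all protein-coding genes. Of 7 neuronal genes 2 had one (28.6%), nSyb and a partial model of Rdl, which is below that share. Of 5 antennal markers only Snmp1 had a model, and Orco, lush, a5 and a10 did not.

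The other steps of chemosensation had few models. Of 209 genes in 7 lists, 8 had one, beside 33.4% of all protein-coding genes. The odorant receptors, the membrane proteins that Obp ligands reach at the neuron, gave 0 of 59. The gustatory receptors gave 1 of 60 (Gr28b) and the ionotropic receptors 1 of 60 (Ir76b), which was also the only one of 5 co-receptors with a model. CheA and CheB genes, which encode secreted proteins of gustatory organs, gave 1 of 20 (CheA87a), and the degrading enzymes gave 1 of 2 (Est-6). The list of carriers and cofactors, which includes lush, gave 4 of 7, namely EbpIII, Phk-3 and the membrane proteins Snmp1, needed for pheromone detection, and Snmp2. The median annotated transcript length of this list was 776 nt, against 1215 nt for odorant receptors, 1224 nt for gustatory receptors and 1822.5 nt for ionotropic receptors. No share over genes of the receptors' lengths is given here. EbpIII shares its symbol prefix with EbpII, which is listed above for the male tract. The tissue behind these chemosensory models was not tested.

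Obp models were short and had few exons. The 27 models had a median spliced length of 596 nt (quartiles 530.5 and 756 nt, range 445 to 1896 nt), compared with 1497.5 nt over all 5750 models of annotated genes and 812.5 nt over the 1760 models of coding genes under 1 kb. Of the 27 models, 19 had 2 exons (70.4%), against 22.2% of all models and 34.6% of those of short genes. Single-exon models were found for Obp99d (501 nt) and Obp99b (574 nt), 3 exons for Obp49a, Obp19b and 1 model of Obp19d, 4 exons for Obp69a and another model of Obp19d, and 5 exons for Obp83a. The first exon was usually the shorter one and held the 5′ UTR with the start of the signal peptide, such as 76 nt in Obp56h, 83 nt in Obp56f, 97 nt in Obp99a and 121 nt in Obp44a.

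The introns were short as well. The 33 distinct introns had a median length of 65 nt and 24 were at most 80 nt long, down to 51 nt in Obp57a. Counted in every model, 74.3% of Obp introns were at most 80 nt long, against 53.7% over all models. The 8 introns over 200 nt lay in Obp8a (227 nt), Obp56a (239 nt), Obp19d (291 nt), Obp19b (370 nt), Obp83a (427 and 1692 nt), Obp99c (469 nt) and Obp83ef (492 nt). The longest of these separates a noncoding first exon of Obp83a from its coding exons. All 33 introns were flanked by GT and AG in the genome. Of 25 multi-exon Obp models 22 had the splice chain of an annotated transcript, beside 86.4% of all 5066 multi-exon models.

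**Figure D2:**
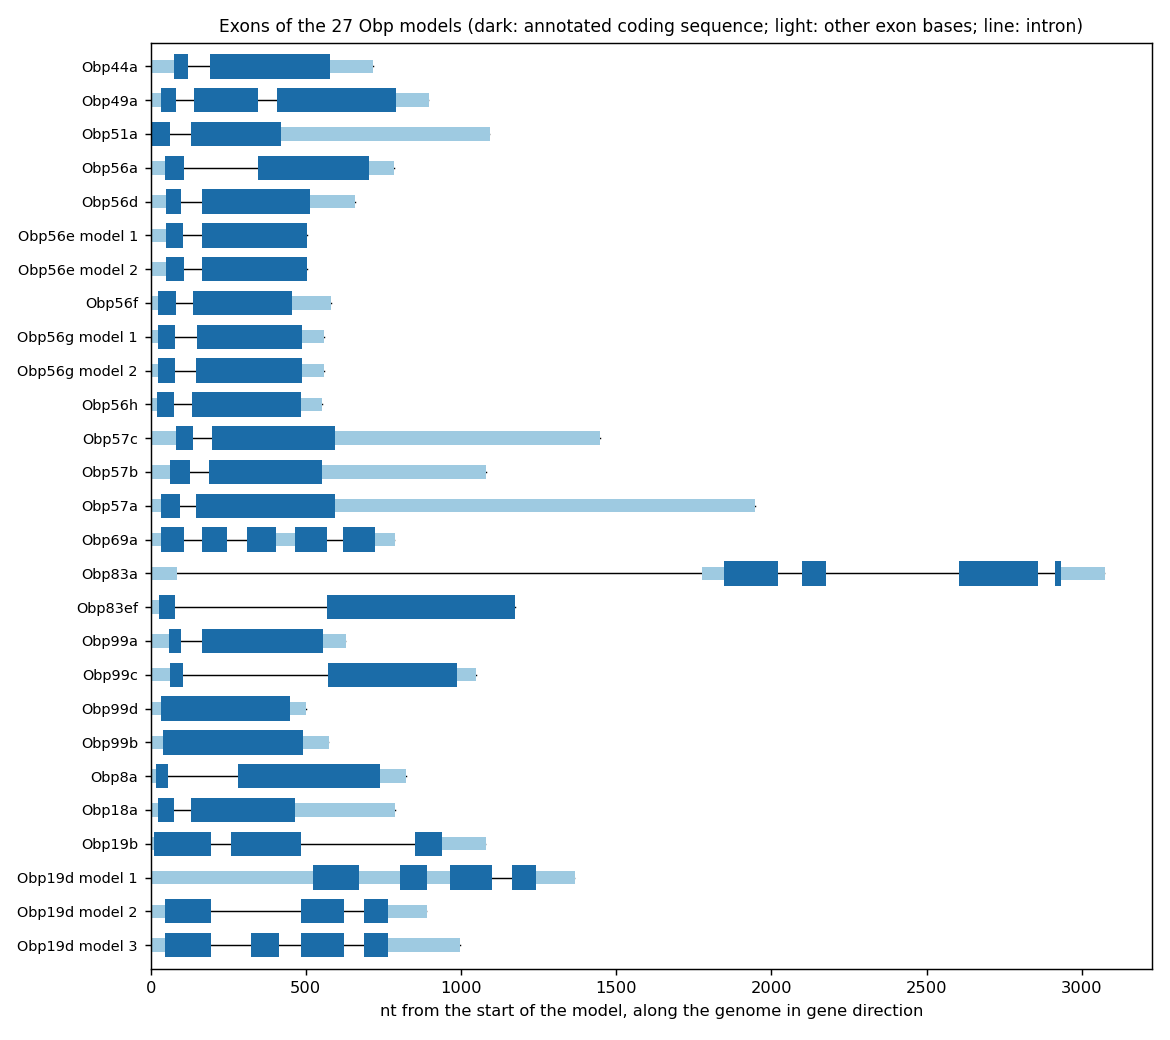
Exons of the 27 Obp models, aligned at their starts along the genome in gene direction and measured in nt; dark blocks are annotated coding sequence, light blocks the other exon bases and lines the introns. Most models show a short first exon and a long second one, Obp83a has an intron of 1692 nt, and long 3′ parts without coding sequence are seen in Obp51a, Obp57c, Obp57b and Obp57a.

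UTRs were short in most members. Among the 21 models with a complete coding sequence, spliced as annotated, the 5′ UTR had a median of 35 nt (0 to 155 nt) and the 3′ UTR of 126 nt (52 to 1354 nt), against 122 and 199 nt over all such models and 86 and 131 nt over those of short genes. These 21 of 27 models stand beside 91.1% of 5739 models of coding genes. The other 6 were both models of Obp56e, Obp69a, Obp83ef and 2 of the 3 models of Obp19d.

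Most Obp genes had a single start and a single 3′ end. Starts more than 50 nt apart were found in 1 of the 23 genes, Obp19d, and 3′ ends more than 150 nt apart in none. More than 1 model was found for 3 of the 23 genes (Obp56e, Obp56g and Obp19d), beside 14.7% of 4662 annotated genes with a model. In Obp56e and Obp56g the 2 models shared both ends and differed by 3 nt at a splice site. The models of Obp56e, 445 and 448 nt long, had introns of 59 and 56 nt that differed at the donor. The models of Obp56g, 491 and 494 nt long, had introns of 68 and 65 nt that differed at the acceptor.

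Of the 24 distinct starts, 22 lay within 1 nt of an annotated start, beside 90.8% of all 4909, and the other 2 were those of Obp57b and Obp57a. Of the 24 distinct 3′ ends 17 lay within 1 nt of an annotated one, beside 72.4% of all 4920. Ends that coincide with annotated ends to the nucleotide cannot be told apart from the annotation itself.

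**Figure D3:**
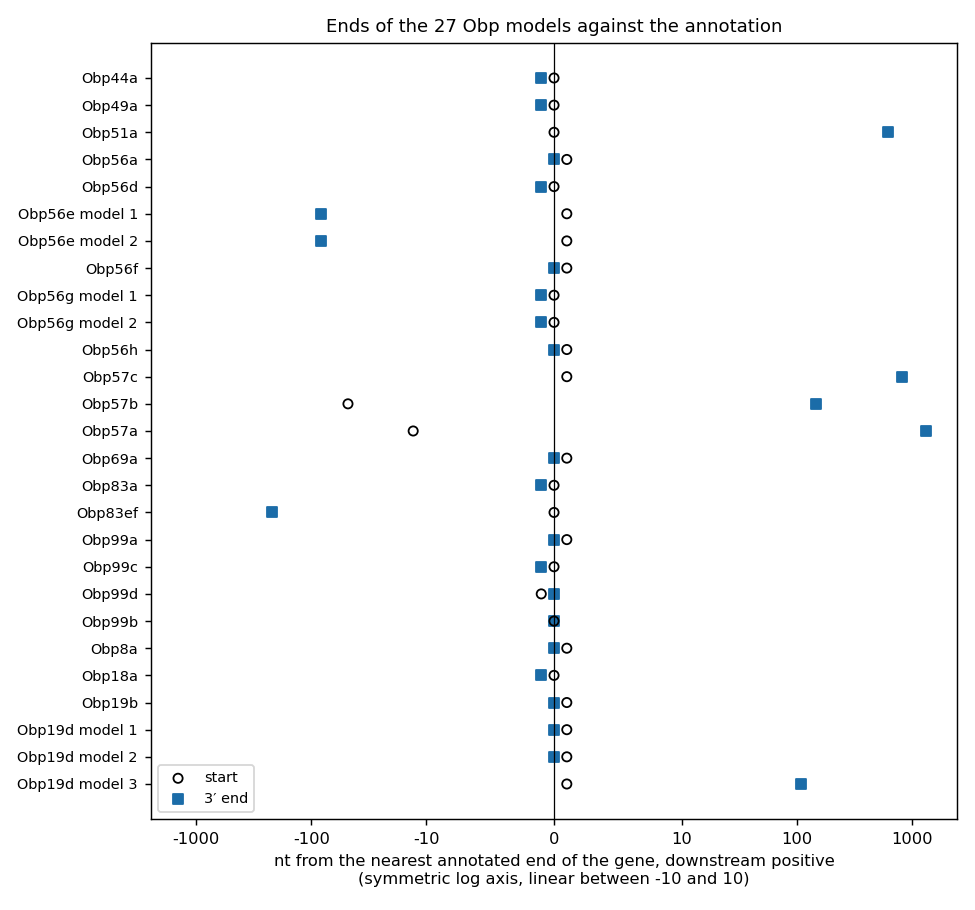
Distance in nt of the start (open circle) and the 3′ end (blue square) of each of the 27 Obp models from the nearest annotated end of its gene, with downstream positive, on a symmetric log axis that is linear up to 10 nt on either side. Most symbols lie at 0 or 1 nt from it, while the 3′ ends of Obp51a, Obp57c, Obp57b, Obp57a and model 3 of Obp19d lie downstream and those of Obp56e and Obp83ef upstream.

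Among the motifs compared here, the TATA box differed most in share between Obp genes and all genes. The motif TATAAA, searched on the strand of the gene in the window from 45 to 15 nt before the start, was found at 17 of 24 Obp starts (70.8%). It was found at 8.54% of all 4909 starts and at 13.9% of the starts of coding genes under 1 kb. Its first base lay at a median of 29 nt before the start (27 to 45 nt), against 30 nt over all starts with the motif. The initiator motif TCAGT within 10 nt of the start was found at 4 of 24 Obp starts (Obp49a, Obp69a, Obp83ef and Obp99c), which is close to the 16.2% of all starts. Starts without TATAAA in the window were those of Obp56h, Obp57b, Obp57a, Obp83ef, Obp8a, Obp18a and the upstream start of Obp19d. In the annotation, TATAAA stood in this window in 17 of the 23 Obp genes with a model and in 10 of the 28 without (35.7%), against 10.6% of all protein-coding genes and 18.9% of those under 1 kb.

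The windows from 40 to 11 nt before the start are shown for 7 members, from the RefSeq release 6 genome (dm6), 5′ to 3′ in gene direction, because they hold the motif that most Obp starts share. Capitals mark TATAAA, and Obp8a and Obp18a are given as members without it.
Obp69a, chr3L:12396132-12396161, plus strand: gtttgacTATAAAaatgaggcgcagcctaa
Obp99a, chr3R:29671618-29671647, plus strand: cctcgctctcgTATAAAtaggggctgcctg
Obp99c, chr3R:29686795-29686824, minus strand: agcgatctgaagcTATAAAgtcaggcactt
Obp99d, chr3R:29714464-29714493, plus strand: gagcgttatgtgTATAAAtgagccgtgctc
Obp99b, chr3R:29716838-29716867, minus strand: gtgtactgtgtcTATAAAaacaactgctga
Obp8a, chrX:9214837-9214866, plus strand: actttccttttagaacttagtccagctttg
Obp18a, chrX:19135879-19135908, minus strand: cgatgggttatatatatagagctgtgatga
The motif sat in nearly the same place in the 5 members shown that hold it, with its first base 33 nt before the start in Obp69a, 29 nt in Obp99a, 27 nt in Obp99c and 28 nt in both Obp99d and Obp99b. Obp18a has TATA repeats in the same place without the full motif. In Obp51a, Obp19b and Obp83a, which are not shown, the motif lay farther upstream, at 43, 44 and 45 nt.

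Poly(A) signals, the hexamers that direct cleavage of the pre-mRNA, stood at most 3′ ends. Any of 12 hexamers, searched on the strand of the gene in the last 50 nt, was found at 21 of 24 Obp 3′ ends, beside 86.7% of all 4920. Each end was counted once, under AATAAA where it was present. The hexamers were AATAAA (16 Obp ends), AATATA (2 ends), AATACA (1 end), GATAAA (1 end), TATAAA (1 end), and ATTAAA (0 ends), AAGAAA (0 ends), AATAGA (0 ends), AATGAA (0 ends), ACTAAA (0 ends), CATAAA (0 ends) and TTTAAA (0 ends). The canonical AATAAA thus stood at 66.7% of Obp ends, against 54.4% of all 3′ ends, and its first base lay a median of 24 nt before the end (17 to 40 nt). In a control window of equal length that ended 200 nt upstream, any hexamer was found at 3 Obp ends and AATAAA at none. Over all 3′ ends, that window held any hexamer at 21.3% and AATAAA at 3.31%. The AATATA of Obp69a and the TATAAA of Obp57a stood 50 and 46 nt before the end. No hexamer was found at the ends of Obp51a, Obp56e and Obp83ef. At least 7 A among the 10 bases of genome that follow the end were counted at 4 Obp ends, beside 10.4% of all. Obp51a had 10 A there, Obp56d 9, Obp56h 7 and Obp57a 7.

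**Figure D4:**
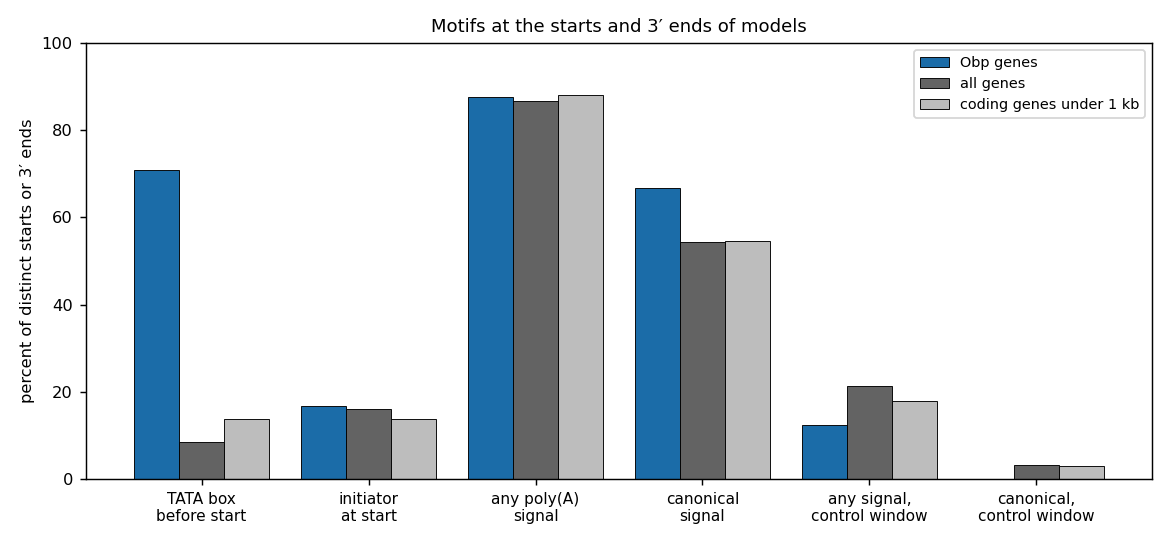
Percent of distinct starts with a TATA box (TATAAA) or an initiator (TCAGT), and of distinct 3′ ends with any of the 12 poly(A) signals or the canonical one, in the last 50 nt and in the control window, for Obp genes (blue), all genes (dark grey) and coding genes under 1 kb (light grey). The TATA box stands at 70.8% of Obp starts against 8.54% of all starts, and the other bars of the Obp genes are closer to those of all genes.

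Obp19d on the X chromosome was the gene with the most models. It lies in the cluster with Obp19a, Obp19b and Obp19c, and its 3 models covered chrX:20419614-20421087. Model 3 (731 nt, exons of 195, 89, 137 and 310 nt) had the annotated splice chain and a complete coding sequence, and its 3′ end lay 108 nt past the annotated one. Model 2 (534 nt) shared its start with model 3, skipped the exon of 89 nt, which is not a multiple of 3, and thereby had an intron of 291 nt that is not annotated. Model 1 (1302 nt) began 477 nt upstream of the others, at another annotated start, and kept the introns of 130 and 72 nt in a first exon of 1100 nt. The downstream start had a TATA box and the upstream one did not. Only model 3 among them therefore held the coding sequence spliced as annotated.

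The 2 ends of Obp19d and those of 3 other members are shown because their poly(A) signals differ. Each sequence is from the same genome and ends at the model's last base, and capitals mark the hexamer under which the end was counted.
Obp19d models 1 and 2, chrX:20420950-20420979, plus strand: aattaagtacttGATAAActgagaaactgc
Obp19d model 3, chrX:20421058-20421087, plus strand: tttactAATAAAaaattcttgctcaatttc
Obp99b, chr3R:29716254-29716283, minus strand: gtcgtaAATAAAgtatttgtttaacggccc
Obp8a, chrX:9215670-9215699, plus strand: tgAATAAAagttgcaagaaaacacggattg
Obp83ef, chr3R:6109861-6109890, minus strand: tgggactcagcgggaggtggcgctaagcaa
The annotated end of Obp19d carried GATAAA with its first base 18 nt before the end, and the end further downstream carried AATAAA 24 nt before it. Obp99b and Obp8a had AATAAA 24 and 28 nt before their ends. The window of Obp83ef, which lies in coding sequence, held none of the hexamers.

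Obp83ef and Obp69a had models whose coding sequence differed from the annotated one. The 682 nt model of Obp83ef, which encodes a protein with a doubled domain, ended 219 nt short of the annotated 3′ end and covered 88.9% of the coding sequence, without its stop codon. No A was present among the 10 bases of genome that follow. The 607 nt model of Obp69a had 4 exons instead of the 5 annotated and kept an intron of 62 nt inside the coding sequence. Because 62 is not a multiple of 3, that model does not keep the reading frame across the retained intron. It was the only model of this gene, which has been linked to social responses to cVA.

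The 4 genes of the 99 region, all with a model, showed 2 kinds of structure. Obp99a (560 nt) and Obp99c (579 nt) had 2 exons each, with introns of 68 and 469 nt. Obp99d (501 nt) and Obp99b (574 nt), on opposite strands and with 1249 nt between them, had a single exon in their models and no annotated coding intron. Both single-exon models carried the opposite strand as deposited and were read on the strand of the gene. Of the 5750 models of annotated genes, 684 had a single exon, and the opposite strand was recorded for 673. For coding genes under 1 kb these counts were 341 and 336. The recorded strand was thus not particular to the 2 Obp models. All 4 genes of the region had a TATA box and AATAAA, and all 4 ended at an annotated position, to within 1 nt. Of 5 other coding genes between Obp99a and Obp99c 2 had a model, and Dup99B, the gene of a seminal peptide between Obp99d and Obp99b, had none.

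The models of Obp57c, Obp57b and Obp57a had annotated splice chains but departed from the annotation at their ends. The 3 genes lie head to tail on the plus strand of 2R, with annotated gaps of 48 and 13 nt. The Obp57c model (chr2R:20503585-20505033, 1387 nt) ran 831 nt past its annotated 3′ end, to within the last exon of Obp57b. The Obp57b model (chr2R:20504203-20505283, 1018 nt) began 48 nt upstream of its annotated start and ended 147 nt past its annotated end, to within Obp57a. The Obp57a model (chr2R:20505137-20507083, 1896 nt, the longest of all Obp models) began 13 nt upstream and ran 1325 nt past its annotated end, and the next coding gene lay 5613 nt beyond its end.

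As a result, models of neighbouring genes overlapped on the same strand. Exons of the Obp57c and Obp57b models shared 768 nt, and those of the Obp57b and Obp57a models shared 96 nt. The Obp57c model kept its own intron of 62 nt and read through that of Obp57b without splicing. Each of the 3 models held its own complete coding sequence first, with 3′ UTRs of 855, 529 and 1354 nt. Poly(A) signals were AATATA at the end of Obp57c (26 nt before it), AATAAA at Obp57b (17 nt) and TATAAA at Obp57a (46 nt). The last of these lay farther from the end than any AATAAA of the Obp ends (17 to 40 nt). The end of Obp57a was also followed by 7 A among the next 10 bases of genome. The starts of Obp57b and Obp57a lay 1 nt after the annotated 3′ ends of Obp57c and Obp57b. All other multi-exon Obp models on the plus strand, such as Obp56a and Obp8a, began 1 nt downstream of an annotated start. Given that offset of 1 nt, the starts of Obp57b and Obp57a cannot be told apart from the annotated 3′ ends themselves. Such a start, 1 nt past the annotated 3′ end of another gene on the same strand, was found at 2 of 24 Obp starts and at 1.26% of all starts. It was also seen for CG8517, 1 nt after the end of Obp56f, and for CG15368, 1 nt after that of Obp8a.

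**Figure D5:**
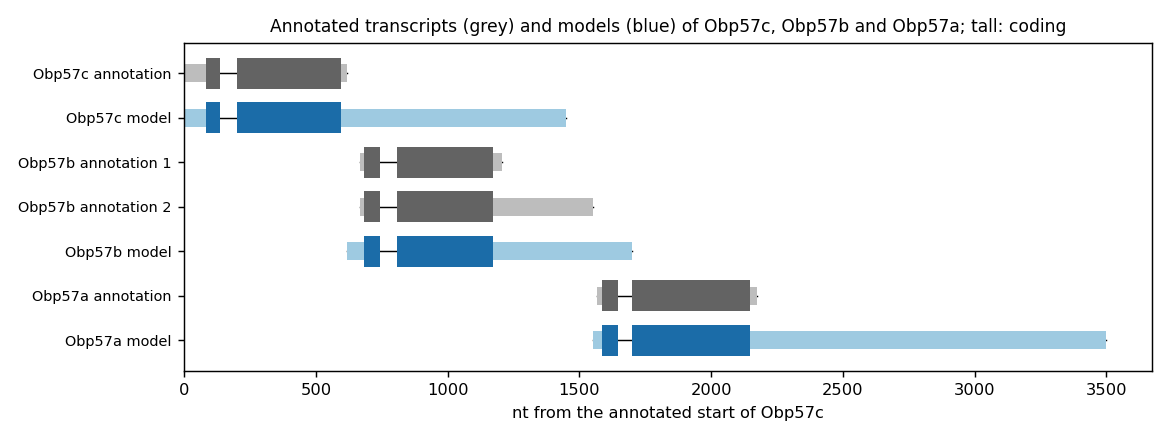
Annotated transcripts (grey) and models (blue) of Obp57c, Obp57b and Obp57a against the distance in nt from the annotated start of Obp57c; tall blocks are coding sequence, low blocks UTR and lines introns. The Obp57c model extends 831 nt and the Obp57a model 1325 nt past the annotated ends, and the Obp57c model overlaps the exons of the Obp57b model by 768 nt.

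Among the members known from seminal fluid, Obp51a and Obp56e had unusual 3′ ends. The Obp51a model (chr2R:15023748-15024839, 1025 nt) ran 627 nt past the annotated end, held no poly(A) signal in its last 50 nt, and was followed by 10 A in the genome. Both Obp56e models ended at the same base, 83 nt before the annotated end and inside the stop codon, where 99.5% of the coding sequence was covered. In contrast, Obp56f (527 nt), Obp56g (491 and 494 nt) and Obp8a (596 nt) ended within 1 nt of annotated ends, with AATAAA 23, 17 and 28 nt before them.

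Unspliced models under no gene name lay over 3 of these members. With a single exon and the opposite strand in the table, they covered Obp51a (478 nt), Obp56e (587 nt) and Obp56g (560 nt) over 99.8% to 100% of their annotated exons, introns included. The opposite strand was recorded for 673 of the 5750 models of annotated genes, among which 684 had a single exon. Models without a gene name were not turned to a gene's strand, so their recorded strand does not show them to be antisense. The 560 nt model had the ends of the annotated Obp56g gene, and the 587 nt model had those of Obp56e to within 1 nt. The 478 nt model reached the annotated 3′ end of Obp51a and extended 13 nt beyond its annotated start. Of the Obp genes without a model, Obp84a was covered by a model of another gene. A spliced model of Dtwd2, on the opposite strand, overlapped 663 nt (81.2%) of its exons.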

How the data were processed

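The authors merged FLAM-seq reads of the 3 heads samples, mapped them with STARlong to dm6 and made isoform models with FLAIR. Short reads corrected the splice sites, only starts known to the Eukaryotic Promoter Database were kept, and at least 2 full-length reads were needed per model. The submitters' processing notes also name featureCounts. The deposited coordinates are exon starts and ends of the 1 pooled assembly; read counts and poly(A) tail lengths were not used here. Of the table, 2 columns were used.

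Annotation was Ensembl release 115, and sequences came from RefSeq release 6. Of all 12981 distinct introns 99.1% were flanked by GT and AG. Models of 1 exon were read on the strand of their gene. Windows of 50 nt (starts) and 150 nt (3′ ends) follow the study. Proteins were translated from the longest annotated coding sequence, since no protein table was used, and aligned globally with BLOSUM62 (Biopython 1.88). Python 3.11.15, pandas 2.3.3, numpy 2.4.6 and matplotlib 3.10.9 were used, and the functions were tested on simulated models.

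The Obp genes, the 7 chemosensory and 9 tissue lists and all windows were chosen with earlier results of these data known. Every Obp gene is named, and of the lists the genes with a model. Values are descriptions set beside the same values over all features, and no test was made. Alternatives covered the matching of members, cluster distance, end windows, choice of models, motif windows and coding overlap.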

Additional observations from a re-analysis of the deposited data

How the results depend on the processing

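Of 30 alternatives over 17 values, 25 gave an equal median or a count within 1.5 times. One of them, the tissue markers without 2 adult cuticle protein genes (46 genes with a model, against 47), was chosen after seeing the data. The median spliced length was 607 nt, against 596 nt, both with the longest model of each gene and with multi-exon models only. With 3′ ends called distinct over 50 nt apart, 1 gene (Obp19d) had several, against 0 at 150 nt. In the last 20 nt any poly(A) signal was found at 7 Obp ends and AATAAA at 4, against 21 and 16 in the last 50 nt, since most signals begin further upstream. Matching models by exon overlap of at least 50% of the model length, in place of identifiers, gave 21 genes with a model. Obp57a and Obp57c were lost, since their models lie mostly outside their annotated exons. The named model of Obp51a also does, with 627 of its 1025 nt past the annotated end. Obp51a was kept through the unnamed model over it, of which 83.3% overlapped its exons. Adding lush left 23. No paired analysis was possible because the reads of the samples were merged before assembly, and for the same reason leaving out a sample was not run. The depth behind each model is unknown, so a missing model is no measure of low expression, and the requirement of a known promoter can remove starts.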
